A study of Danio rerio with 6 samples.

Results

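The Egr, Npas4 and Nr4a genes of zebrafish are described here in 6 RNA sequencing libraries, as 10 genes matched by name among the 32053 rows of the count tables: egr1, egr2a, egr2b, egr3, egr4, npas4a, nr4a1, nr4a2a, nr4a2b and nr4a3. Each name stood on 1 row. A further zebrafish Npas4 gene, npas4b, was not found under that name, so npas4a alone stands for Npas4 here. The genes were selected on family and on their measured fold changes between these groups, the large ones of npas4a, egr4 and egr1 being known, so their values in that comparison are a description and no p-value is given for any of them. The BP_3 group holds 3 libraries from embryos kept in 2 mg/L of BP-3, which usually stands for benzophenone-3, a sunscreen ingredient that absorbs ultraviolet light. The WT group holds 3 libraries whose treatment reads control. Both groups were sampled at 5 days after fertilization, from tissue labelled intestinal and dissected with forceps, and the labels give no strain, genotype or vehicle that would set the groups apart further. Under treatment, BP_3 replicate 1 is labelled BP-3, replicate 2 BP-4 and replicate 3 BP-5, although titles and protocol know BP-3 alone. Nothing says that replicates came from separate clutches or pools, so spreads are those between these libraries and may be technical.

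All 3 families encode transcription factors whose genes are switched on within minutes by signals that reach the nucleus without new protein synthesis, and they are classed as immediate early genes. Egr proteins bind DNA through zinc fingers. Npas4 is a basic helix-loop-helix PAS protein, known from mammals as a gene of neurons that answers to calcium entry. Nr4a proteins are orphan nuclear receptors that act without a known natural ligand. Their transcripts are short-lived, so a level measured in tissue can follow the recent stimulation of its cells. It also depends on which cells the tissue holds.

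Total counts lay between 24000785 and 41726516 in BP_3 and between 23567603 and 36961866 in WT, and fell with the replicate number in both groups. Neuronal transcripts were present in these libraries from tissue labelled intestinal. The summed level of 19 neuronal markers lay at 2650 to 2790 CPM (counts relative to library size, TMM scaled) in BP_3 and at 2990 to 3160 CPM in WT. Markers of skeletal muscle (43500 to 51600 CPM in BP_3, 43900 to 52400 CPM in WT) and epidermis (20200 to 21400 CPM in BP_3, 22800 to 24500 CPM in WT) were present as well, beside those of enterocytes (3860 to 4540 CPM in BP_3, 2370 to 3230 CPM in WT). Retina markers (6010 to 6320 CPM in BP_3, 5910 to 6490 CPM in WT) were present too. So were lens markers (1870 to 2280 CPM in BP_3, 2640 to 3190 CPM in WT). The levels given here are thus not those of intestine alone. In such bulk tissue, fewer cells of a type and less RNA per cell cannot be told apart.

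The largest differences lay in npas4a, egr4 and egr1, each lower in BP_3 by 2-fold or more. The Npas4 gene npas4a had counts of 219, 180 and 131 in BP_3 replicates 1 to 3, against 1844, 1378 and 1024 in WT. Scaled to library size these were 5.31, 5.16 and 5.35 CPM in BP_3 and 50.8, 48.2 and 42.3 CPM in WT. The lowest WT library stood 7.91-fold above the highest BP_3 library, and the fitted log2 fold change was -3.16 ± 0.096 (SE). Of 23167 rows tested, npas4a had the second lowest fold change. Its BP_3 values differed by a factor of only 1.04, a coefficient of variation of 1.90%, where counting alone gives 7.52%; the SD over 3 libraries therefore understates the error of that mean.

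Egr genes differed by unlike amounts. The gene egr4, which in mammals encodes a zinc finger factor of the nervous system and germ line, had 5.12, 4.24 and 4.16 CPM in BP_3 replicates 1 to 3, against 25.0, 22.9 and 18.7 CPM in WT. The groups stood well apart, 3.65-fold between the nearest libraries, and the log2 fold change was -2.29 ± 0.14 (SE). The gene egr1, the widely used marker of recent stimulation in many cell types, had 51.6, 44.9 and 48.5 CPM in BP_3, against 112, 109 and 105 CPM in WT. Every WT library held at least 2.03 times the level of any BP_3 library, with a log2 fold change of -1.17 ± 0.08 (SE). These values rest on 1189 to 2129 counts in BP_3 and 2539 to 4059 counts in WT, the highest counts among the Egr genes.

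The other 3 Egr genes differed less. Counts of egr2a, a duplicate of the hindbrain and Schwann cell regulator Krox20, were low, at 58, 30 and 34 in BP_3 and 87, 47 and 55 in WT. It lay at 1.41, 0.860 and 1.39 CPM in BP_3, against 2.40, 1.64 and 2.27 CPM in WT, with a gap of 1.17-fold between the groups and a log2 fold change of -0.79 ± 0.27 (SE). In both groups replicate 2 was the low library. The gene egr3, which in mammals acts in muscle spindles and lymphocytes, had 4.85, 4.44 and 6.20 CPM in BP_3, against 7.60, 6.40 and 8.59 CPM in WT. Its groups nearly touched, 1.03-fold apart, and its log2 fold change was -0.55 ± 0.16 (SE). The second Krox20 duplicate, egr2b, had 4.71, 3.70 and 3.84 CPM in BP_3 and 5.01, 4.23 and 5.86 CPM in WT. Here the groups overlapped, and the log2 fold change was -0.29 ± 0.17 (SE).

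**Figure D1:**
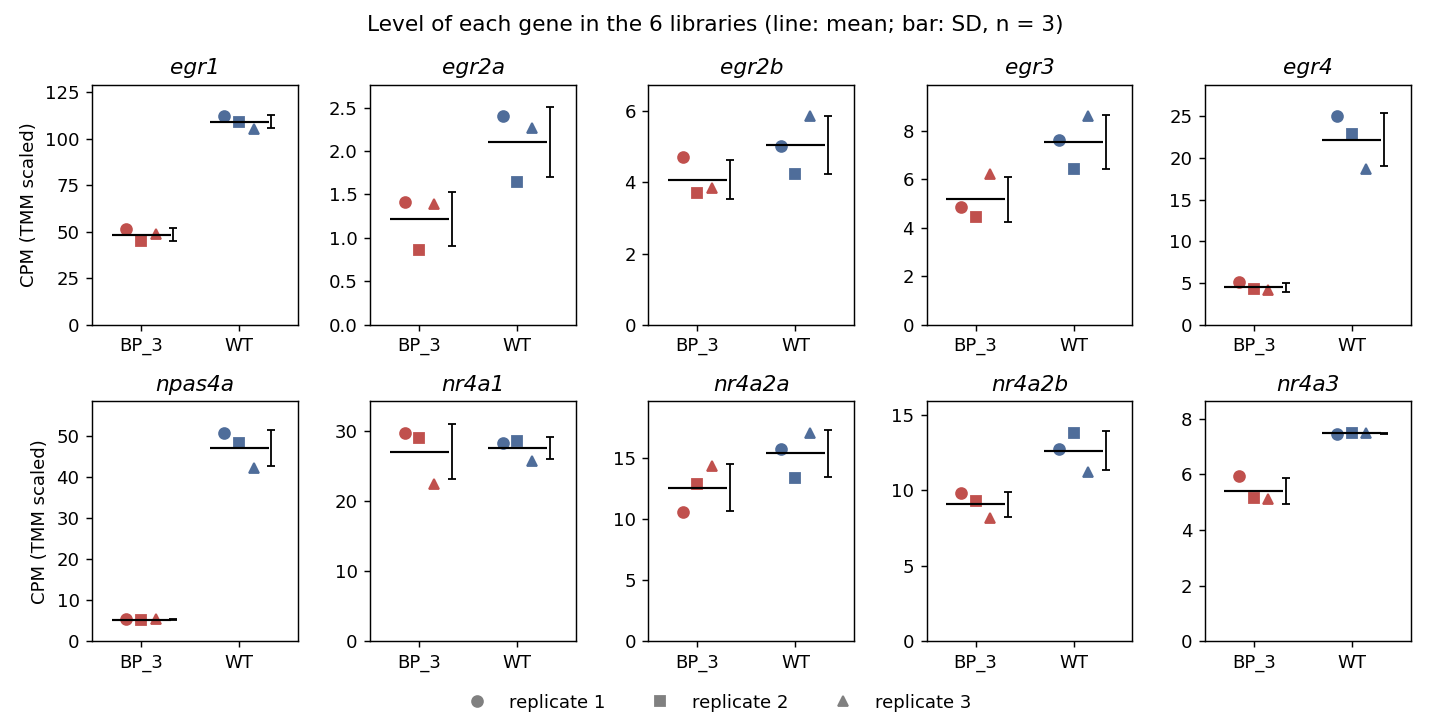
Level of each of the 10 genes in CPM (vertical axes from 0, a scale for each gene) in the 3 BP_3 and the 3 WT libraries; marks stand for replicates, the line for the mean and the bar for the SD (n = 3). The BP_3 libraries lie far below WT for npas4a (5.16 to 5.35 against 42.3 to 50.8 CPM) and egr4, while nr4a1 overlaps (22.5 to 29.8 against 25.8 to 28.6 CPM).

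Nr4a genes lay closer to their control levels than npas4a, egr4 and egr1. The gene nr4a1, whose mammalian counterpart Nur77 is induced in many cells and in activated lymphocytes, had 29.8, 29.0 and 22.5 CPM in BP_3, against 28.4, 28.6 and 25.8 CPM in WT. The groups overlapped, replicate 3 was the low library of each, and the log2 fold change was -0.02 ± 0.11 (SE). The duplicates of Nurr1, a regulator of dopamine neurons, were nr4a2a and nr4a2b. Levels of nr4a2a were 10.6, 12.9 and 14.4 CPM in BP_3 and 15.8, 13.4 and 17.1 CPM in WT, overlapping, with a log2 fold change of -0.30 ± 0.13 (SE). Levels of nr4a2b were 9.78, 9.26 and 8.16 CPM in BP_3 and 12.7, 13.8 and 11.2 CPM in WT, 1.14-fold apart at the nearest libraries, with a log2 fold change of -0.47 ± 0.12 (SE). The gene nr4a3, counterpart of mammalian Nor1, had 5.94, 5.16 and 5.10 CPM in BP_3 and 7.44, 7.49 and 7.47 CPM in WT. Its groups did not overlap, and the log2 fold change was -0.46 ± 0.12 (SE). The WT values of nr4a3 lay closer together (0.356% coefficient of variation) than counting gives (6.72%), so their spread is no measure of error.

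By the fit over all rows (edgeR's quasi-likelihood test, Benjamini-Hochberg adjustment, threshold 0.05), 5 of the 10 genes were past the threshold and lower in BP_3, namely npas4a, egr4, egr1, nr4a2b and nr4a3. None was higher by edgeR, DESeq2 or limma-voom, at the adjusted or the unadjusted 0.05, and DESeq2 and limma-voom each placed 6 lower, egr3 being added. Over all 23167 rows, 4.29% were past it and lower. All 10 passed the filter on low counts. In 7 of 10 genes every BP_3 library lay below every WT library, which 14.9% of all rows did, and 3 of 10 were at least 2-fold lower, against 0.751% of all rows. All 10 log2 fold changes were below 0, as were 50.2% of those of all rows, and their median was -0.51 where that of all rows was -0.001. As the genes were picked with this comparison in view, these counts are set beside the shares without reading anything from them.

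With the replicate number as a block, 7 of the 10 were past the threshold, egr2a and egr3 being added. Of all 23167 rows, 2279 were past it and lower with the block, against 995 without it. With BP_3 replicate 1 as the sole exposed library, the 3 past it were npas4a, egr4 and egr1, and the log2 fold changes were -3.15, -2.12 and -1.07. These 3 genes were past it in all 16 alternatives computed, whereas nr4a3 was lost in each of the 6 fits that left out a library, and nr4a2b in 5 of them. The count of 5 became 3 without BP_3 replicate 1, BP_3 replicate 2, WT replicate 1 or WT replicate 2, and 4 without either replicate 3. Without BP_3 replicate 3 the 4 included egr3, which was not among the 5. Of all rows, 388 to 1046 were past the threshold and lower with a library left out, against 995 with all 6 libraries.

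**Figure D2:**
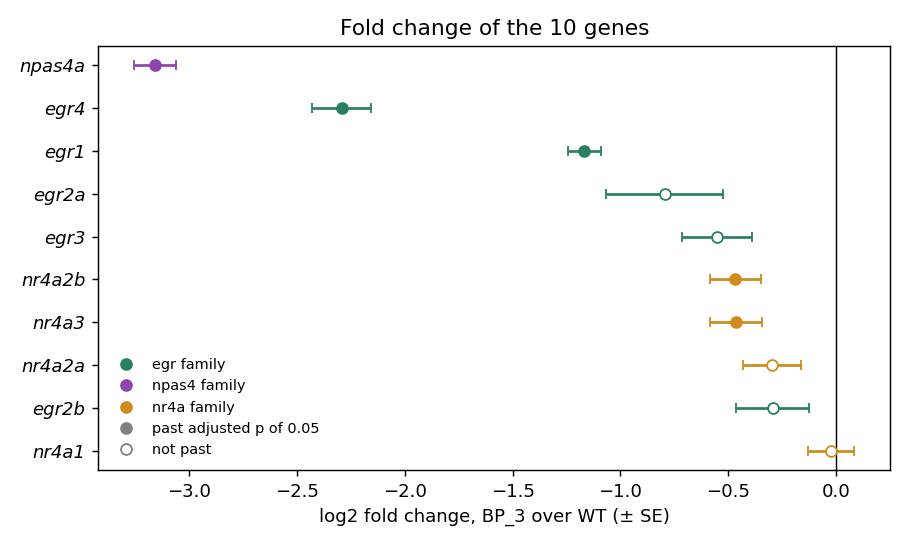
Log2 fold change of BP_3 over WT (horizontal axis; bars are the SE of the fit over 6 libraries) for the 10 genes, coloured by family; filled marks are past an adjusted p of 0.05. Values run between -3.16 for npas4a and -0.02 for nr4a1, and the Nr4a genes lie between -0.47 and -0.02.

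Ratios between genes of the same library need no scaling for depth, and they restate the differences given above without it. They compare libraries, not the abundance of the genes, as transcript length was not used. The ratio of npas4a to nr4a1 counts was 0.178, 0.178 and 0.237 in BP_3, against 1.79, 1.69 and 1.64 in WT. That of egr1 to nr4a1 was 1.74, 1.55 and 2.15 in BP_3 and 3.94, 3.82 and 4.06 in WT. Both ratios separated the groups in full, which follows from the levels above and is no separate test. Between npas4a and egr1, which were both lower in BP_3, the ratio was 0.103, 0.115 and 0.110 in BP_3 and 0.454, 0.442 and 0.403 in WT, so npas4a was the further reduced of the pair in each exposed library.

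Duplicates of one ancestral gene showed smaller shifts. The ratio of egr2a to egr2b was 0.299, 0.233 and 0.362 in BP_3 and 0.478, 0.388 and 0.387 in WT; the groups did not overlap, but the gap was small beside the counting error of egr2a (15.7% per BP_3 library). The ratio of nr4a2a to nr4a2b was 1.08, 1.39 and 1.76 in BP_3 and 1.24, 0.972 and 1.53 in WT and overlapped.

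**Figure D3:**
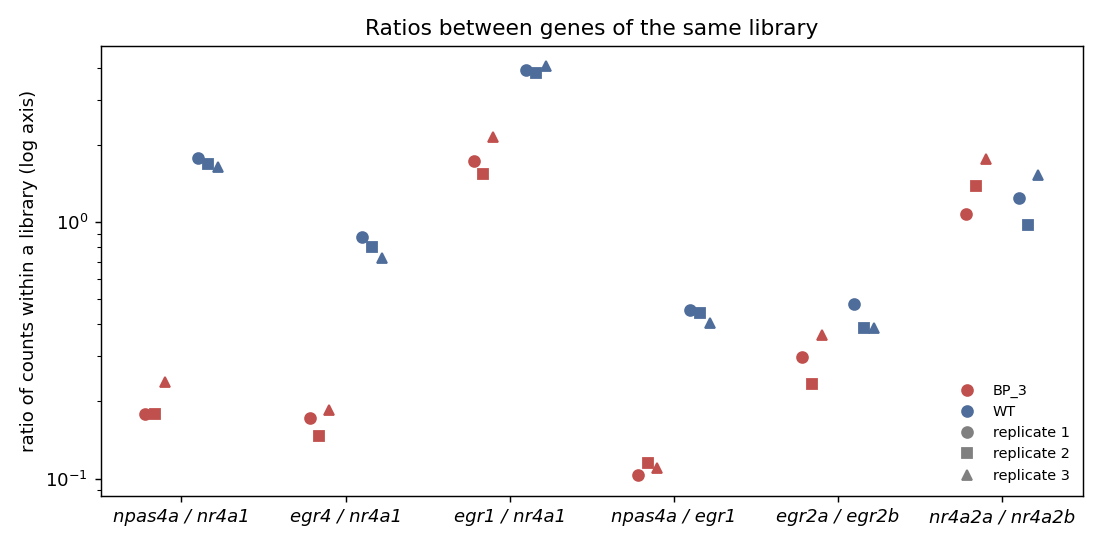
Ratio of the counts of a pair of genes within each library (vertical log axis) for 6 pairs, BP_3 to the left of WT in each; marks stand for replicates. Ratios of npas4a, egr4 and egr1 to nr4a1 lie lower in BP_3, as for npas4a to nr4a1 (0.178 to 0.237 in BP_3, 1.64 to 1.79 in WT), and those of nr4a2a to nr4a2b overlap.

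No library was the highest or the lowest of its group for all 10 genes. In BP_3, replicate 1 was highest for 7 genes and replicate 2 for 0, with mean deviations from the group mean of 0.082, -0.087 and 0.005 on the log2 scale in replicates 1 to 3. In WT, replicates 1 to 3 were highest for 4, 3 and 3 genes, with mean deviations of 0.067, -0.069 and 0.002. The largest deviation was that of egr2a in BP_3 replicate 2, at -0.441, the gene with the fewest counts.

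Among the rows whose profile over the 6 libraries lay nearest to the mean profile of the 10 genes were nfil3-5, gadd45bb, cebpd and 1 of the 2 rows named ewsr1b, the one with fewer counts. The other ewsr1b row, with the higher total, averaged 112 ± 4.63 CPM in BP_3 and 118 ± 3.34 CPM in WT (SD, n = 3) and was not past the threshold. Nearness was the root mean square difference of log2 CPM centred on each row's mean, and lay between 0.041 for the ewsr1b row and 0.093 for cebpd. Levels of nfil3-5, one of the Nfil3 bZIP repressors, averaged 78.4 ± 5.45 CPM in BP_3 and 152 ± 9.52 CPM in WT (SD, n = 3). Those of cebpd, a bZIP factor of acute responses, averaged 116 ± 2.46 CPM in BP_3 and 206 ± 12.1 CPM in WT (SD, n = 3). Since the profile was dominated by the difference between groups, any row lower by a like amount lies near it. Of the single genes, egr1 was nearest to that mean profile (0.118) and npas4a farthest (1.1).

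Nearest to npas4a itself was fosab, the AP-1 subunit gene c-Fos, at a root mean square difference of 0.135. It had 9.95, 9.72 and 9.18 CPM in BP_3 and 73.8, 78.3 and 65.2 CPM in WT. The next rows were scpp9 at 0.414 and the hepcidin gene hamp at 0.519, neither of them an early response gene.

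Other genes of the pathway were taken from lists written by function with earlier results of these data known. Of 50 other early response genes tested, 23 fell and 0 rose, with a median log2 fold change of -0.30; over all rows 4.29% fell and 6.26% rose. At an unadjusted p under 0.05, 36 were lower and 1 higher in edgeR. The share of all rows at that unadjusted cutoff was not counted. It is at least the adjusted 4.29% lower and 6.26% higher, so unadjusted counts of any list here lack their background. At the adjusted threshold DESeq2 called 26 lower and limma-voom 23, and 0 higher by either. Of all 23167 rows, DESeq2 called 1280 lower and 1672 higher, and limma-voom 1031 and 1491. With the replicate block, 2279 were lower and 2747 higher. Leaving out a library gave 388 to 1046 rows lower and 696 to 1448 higher. These counts are the background of every list below. Of the early response genes, 16 to 24 fell with a library left out. Their log2 fold changes lay between -2.86 and 0.33 with BP_3 replicate 1 as the sole exposed library. The 4 with the smallest adjusted p were fosab, btg2, socs3a and dusp1. Expression of btg2, an antiproliferative gene, averaged 24.8 ± 2.74 CPM in BP_3 and 92.8 ± 0.845 CPM in WT (SD, n = 3; edgeR adjusted p = 2.01e-06). The phosphatase gene dusp1 averaged 60.1 ± 3.95 CPM in BP_3 and 138 ± 11.7 CPM in WT (SD, n = 3; edgeR adjusted p = 3.87e-05), and the cytokine feedback gene socs3a had a log2 fold change of -1.61 ± 0.10 (SE; edgeR adjusted p = 1.59e-05). Not all of the list was lower: 27 genes were not past the threshold, and the stress factor gene atf3 had 0.13 ± 0.14 on the same scale (SE). The AP-1 gene jun had 50.4, 52.0 and 53.1 CPM in BP_3 and 67.5, 15.6 and 54.4 CPM in WT. Its log2 fold change was 0.18 ± 0.38 (SE), and -0.24 without WT replicate 2, its low library. Both atf3 and jun were chosen after their values were seen.

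Among 48 genes that act upstream (Srf and its cofactors, Creb and its coactivators, Erk and calcium signalling, Mef2), 8 fell and 1 rose, with a median of -0.06. With the replicate block 12 fell and 6 rose. Log2 fold changes of the list lay between -0.454 and 0.675 with BP_3 replicate 1 as the sole exposed library. Leaving out a library gave 1, 2 and 4 falls without BP_3 replicates 1 to 3 and 1, 1 and 6 without WT replicates 1 to 3, and the rise was lost without BP_3 replicate 2, WT replicate 1 or WT replicate 2. The calcineurin catalytic subunit genes ppp3cb and ppp3ca fell by 0.35 and 0.30 on the log2 scale (edgeR adjusted p = 0.0104 and 0.0165), and the NMDA receptor gene grin1b fell by 0.28 (edgeR adjusted p = 0.0212). The kinase gene camkk1b rose by 0.54 (edgeR adjusted p = 0.0128). Of the factors that bind control regions of early genes, srfa, srfb, creb1a and creb1b were not past the threshold. Their log2 fold changes were 0.26 ± 0.16, -0.16 ± 0.20, -0.12 ± 0.08 and -0.19 ± 0.09 (SE). Past it and lower were the factors mef2cb and nfatc3b, at -0.26 and -0.46 (edgeR adjusted p = 0.0416 and 0.0495). The Srf cofactor gene mrtfab was lower too, at -0.37 (edgeR adjusted p = 0.0259). The remaining genes that fell were camk4 and grin1a. All genes from srfa onward were picked after the values were seen.

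Of 11 partner genes, 1 rose and 0 fell in edgeR, DESeq2 and limma-voom alike, with 1 higher and 3 lower at an unadjusted p under 0.05 in each. The partner of Nr4a1 and Nr4a2 that rose was the retinoid X receptor gene rxrab, at 5.01 ± 0.267 CPM in BP_3 and 2.60 ± 0.611 CPM in WT (SD, n = 3; edgeR adjusted p = 0.00998). The Npas4 partner gene arnt2 had -0.25 ± 0.09, and the Egr corepressor genes nab1a and nab2 had -0.44 ± 0.16 and -0.45 ± 0.18 (log2 fold change, SE), not past the threshold. With the replicate block arnt2 and nab1a were past it, at -0.25 and -0.45.

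Of 30 genes reported as targets of these factors in other settings, 5 fell and 2 rose, with a median of -0.12. Log2 fold changes of the list lay between -0.495 and 1.139 with BP_3 replicate 1 as the sole exposed library. Leaving out a library gave 0, 1 and 4 falls without BP_3 replicates 1 to 3 and 1, 1 and 6 without WT replicates 1 to 3, and 1 rise in each but the last, which gave 2. The glucose 6-phosphatase gene g6pca.1, a target of mammalian Nr4a1 in liver, rose to 15.7 ± 1.98 CPM in BP_3, against 7.85 ± 0.849 CPM in WT (SD, n = 3; edgeR adjusted p = 0.000995). Its duplicate g6pca.2, named after its values were seen, was not past the threshold, at -0.45 ± 0.14 (log2 fold change, SE); with the replicate block it was, at -0.43, as it was without WT replicate 3, at -0.62. Of the Krox20 targets on the list, epha4a and mbpa fell by 0.46 and 0.33 on the log2 scale (edgeR adjusted p = 0.0130 and 0.0240). Lower too was mpz, at -0.38 (edgeR adjusted p = 0.0295). Not past the threshold were mbpb, the duplicate of mbpa, at -0.05, and pmp22a and pmp22b, at -0.15 and 0.02. Nor were hoxb2a and hoxa2b, at -0.10 and -0.16. From mpz onward these targets were named after their values were seen. The synaptic scaffold gene homer1b fell by 0.34 (edgeR adjusted p = 0.0139). The neurotrophin gene bdnf, a classic Npas4 target in mammalian neurons and singled out after its values were seen, averaged 12.5 ± 0.675 CPM in BP_3 and 13.6 ± 1.0 CPM in WT (SD, n = 3), with a log2 fold change of -0.12 ± 0.10 (SE). Of 5 relatives outside the 10 genes, 0 were past the threshold. Among them npas4l, the Npas4-like gene cloche of blood and vessel formation, had a log2 fold change of -0.26 ± 0.21 and npas2 one of -0.19 ± 0.10. The zinc finger genes wt1a and wt1b had 0.51 ± 0.18 and -0.23 ± 0.26 (SE). DESeq2 and limma-voom placed 0 past it too, and at an unadjusted p under 0.05 edgeR, DESeq2 and limma-voom each had 1 of the 5 higher and 0 lower. In edgeR wt1a was past the adjusted threshold with the replicate block (0.53) and without WT replicate 3 (0.66).

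**Figure D4:**
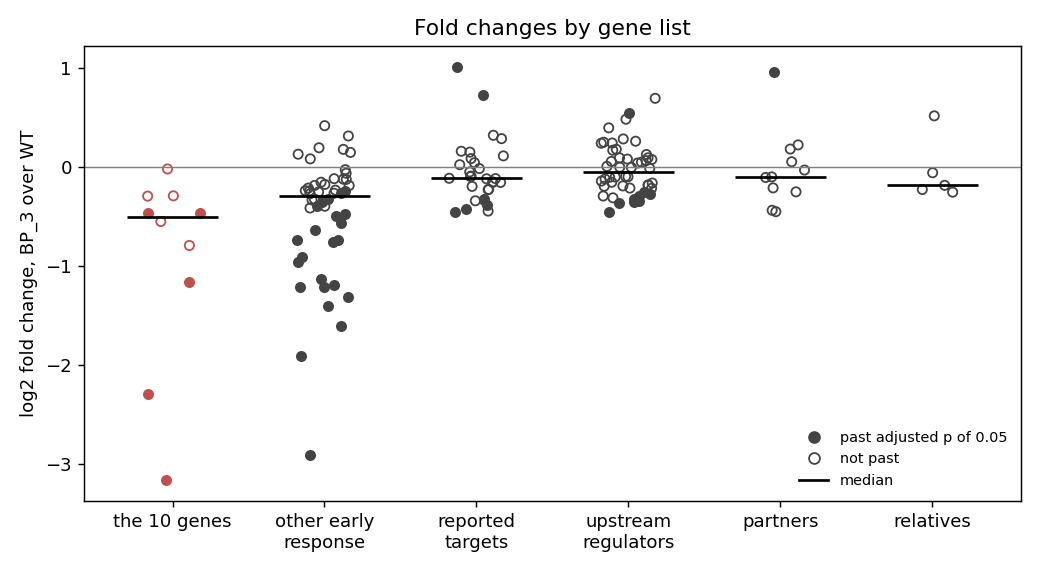
Log2 fold change of BP_3 over WT (vertical axis) of the 10 genes and of the tested genes in the 5 pathway lists, 1 point a gene, with the median as a line; filled points are past an adjusted p of 0.05. The early response genes have a median of -0.30 and reach down to -2.91. Medians of the other lists lie between -0.19 (relatives) and -0.06 (upstream), and their lowest genes between -0.46 (targets) and -0.26 (relatives).

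Summed markers of cell types in BP_3 ran from 0.693 times WT for lens to 1.5 times for enterocytes. Their part in the results was not tested. Of the 19 neuronal markers 3 fell and 0 rose, the summed level was 0.885 times that of WT, and the median log2 fold change was -0.17. At an unadjusted p under 0.05, 8 were lower and 0 higher in edgeR, a cutoff at which all rows were not counted. DESeq2 and limma-voom called 5 and 4 lower and 0 higher. Of all 23167 rows they called 1280 and 1031 lower. With the replicate block 9 fell, as did 2279 of all rows. Leaving out a library gave 0, 0 and 5 falls without BP_3 replicates 1 to 3 and 2, 2 and 3 without WT replicates 1 to 3. Log2 fold changes of the neuronal markers lay between -0.49 and 0.08 with BP_3 replicate 1 as the sole exposed library. The summed levels of the groups did not overlap, and the lowest log2 fold change of a neuronal marker was -0.40. The 3 neuronal markers that fell were stxbp1a, rbfox3a and syt1a, at log2 fold changes of -0.40, -0.38 and -0.30. The gene elavl3, a marker of young neurons, was singled out after its values were seen. It averaged 198 ± 17.1 CPM in BP_3 and 222 ± 30.5 CPM in WT (SD, n = 3). It was past the threshold only with the replicate block, at a log2 fold change of -0.16. The 10 enteric neuron markers lay at 200 to 211 CPM in BP_3 and 206 to 214 CPM in WT, with 0 past the threshold in edgeR, DESeq2 and limma-voom (2 lower and 2 higher at an unadjusted p under 0.05 in each); 2 rose with the replicate block and 1 without BP_3 replicate 3. Of 9 lens markers 6 fell, and their sum was 1870 to 2280 CPM in BP_3 and 2640 to 3190 CPM in WT. All 9 lens markers fell in DESeq2 and with the replicate block, where 1280 and 2279 of all 23167 rows fell. With a library left out 5 to 8 lens markers fell, and 388 to 1046 of all rows. With BP_3 replicate 1 as the sole exposed library the lens markers had log2 fold changes between -0.99 and -0.09. Of 9 enterocyte markers 2 rose and 1 fell, with a median log2 fold change of 0.21. Their sum in BP_3 was 1.5 times that of WT, with much of the difference in apolipoprotein genes. Levels of apoa1a averaged 1760 ± 104 CPM in BP_3 and 935 ± 106 CPM in WT (SD, n = 3). Those of apoa4b.1, not past the threshold, averaged 759 ± 342 and 411 ± 289 CPM. The others ran from -0.55 (cubn) to 0.36 (anpepb), with vil1 at 0.11 and cdx1b at -0.03 (log2 fold change). With the replicate block 5 rose and 2 fell, where 2747 and 2279 of all 23167 rows did. With BP_3 replicate 1 as the sole exposed library, log2 fold changes lay between -0.50 and 1.23. Summed retina markers lay at 6010 to 6320 CPM in BP_3 and 5910 to 6490 CPM in WT, and those of endothelium at 215 to 228 CPM in BP_3 and 200 to 214 CPM in WT. Leukocyte markers summed to 161 to 179 CPM in BP_3 and 137 to 149 CPM in WT, and smooth muscle markers to 471 to 510 CPM in BP_3 and 404 to 434 CPM in WT. None of the marker genes found was at 0 in all libraries.

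Use of strand in counting is not stated, so reads of overlapping genes cannot be told apart. In the zebrafish reference table (assembly GRCz12tu), the genes znf365 and cyp17a2 overlap egr2a and egr4. Their log2 fold changes were 0.10 ± 0.32 for znf365 and -0.19 ± 0.29 for cyp17a2 (SE). The span of npas4a overlaps a long noncoding RNA, not analysed here.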

How the data were processed

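Per the labels' protocols, total RNA was extracted with TRIzol and paired-end libraries were run on an Illumina HiSeq. Each library's deposited table gives the authors' raw counts per gene name, not normalized. The aligner, counter, annotation and strand setting were not given in the sources used here. The submitters' processing notes list a mouse build for these fish, so no coordinates from those notes are used. Overlaps between genes were taken from coordinates of the reference assembly GRCz12tu, which may differ from the annotation behind the counts. Tables held 32053 rows under 28715 names, and 586 names stood on more than 1 row; for these the row with the highest total was taken for list members, while the search for nearest profiles ran over all rows. In all 6 libraries more rows held 4 counts than 3, as would happen if mates of a read pair were counted singly, so counting errors given are lower limits. Pairs of libraries within a group differed beyond sampling noise (chi-square per degree of freedom 5.34 to 20.6 over rows with a total of at least 20), so none was counted as a repeat.

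Rows were filtered with filterByExpr (8886 removed, 23167 tested), scaled by TMM and compared with edgeR 4.0.16 in R 4.3.3 (glmQLFit, glmQLFTest, no covariates), with Benjamini-Hochberg adjustment over all rows and a threshold of 0.05. The test was tested on simulated data. SE is the log2 fold change divided by the root of the F statistic. CPM values are TMM scaled; centred profiles used log2 CPM with a prior count of 2. Alternatives were other scaling and filters, DESeq2 1.42.0, limma-voom (limma 3.58.1), the replicate block, left-out libraries, BP_3 replicate 1 alone and, for the 10 genes, summed rows of 1 name. The replicate numbers come from the titles. Deviations of same-numbered libraries of the 2 groups had correlations of 0.187, 0.153 and 0.441 for numbers 1 to 3 over 18908 rows. BP_3 replicate 1 was as close to WT replicate 2 (0.196) and BP_3 replicate 2 to WT replicate 1 (0.175), and replicate 3 stood apart in both groups. The correlations therefore do not show that numbers 1 and 2 pair samples. The main fit is unpaired, and the block by number is an alternative.

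The 10 genes and all lists were chosen with earlier results of these data known. Lists held 276 distinct genes, of which 258 were in the files. Named were all 10 genes, up to 4 genes of each pathway list with the smallest adjusted p, the 5 rows nearest to the mean profile of the 10 genes, the 3 nearest to npas4a (mean log2 CPM of at least 1, no clone names), and genes marked as picked later. Of the nearest rows and the genes overlapping the 10, some are not reported here. Marker lists were for neurons, enteric neurons, retina, lens, enterocytes, smooth muscle, skeletal muscle, endothelium, leukocytes and epidermis. Figures were drawn with matplotlib 3.10.9.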

Additional observations from a re-analysis of the deposited data

How the results depend on the processing

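The log2 fold changes of 9 of the 10 genes kept their sign in all 16 alternatives; that of nr4a1, never past the threshold, lay between -0.10 and 0.11. Values of npas4a lay between -3.24 and -3.10, of egr4 between -2.40 and -2.12 and of egr1 between -1.22 and -1.07. Past the threshold, egr3 was found in 5 alternatives and egr2a in 1, the replicate block. Counts depended more on the setting. With the replicate block, 2747 rows were higher and 2279 lower in BP_3 (1451 and 995 without it), 12 pathway genes rose (4 without it) and 54 fell (36 without it). Of the named genes computed with the block, it added egr2a, egr3, arnt2, nab1a, wt1a, g6pca.2 and elavl3 to those past the threshold and removed none. With both replicate 3 libraries left out, 2147 rows were higher and 1747 lower, and 7 pathway genes rose and 45 fell. With BP_3 replicate 1 alone, where the lone library is assumed to vary like WT, 293 rows were higher and 142 lower, 3 of the 10 genes were lower, and 1 pathway gene rose and 10 fell. Leaving out 1 library gave 696 to 1448 rows higher and 388 to 1046 lower, 3 to 4 of the 10 genes lower, and 2 to 7 pathway genes higher and 18 to 36 lower. Rows lower numbered 464, 388, 433 and 467 without BP_3 replicate 1, BP_3 replicate 2, WT replicate 1 and WT replicate 2. Without BP_3 replicate 3 or WT replicate 3, rows lower numbered 898 and 1046. Fits with libraries left out held fewer samples. The cause of the shifts was not tested for any setting. Under the other scalings the median of all rows was -0.005 and -0.006. Depth limits egr2a most, with 30 to 87 counts a library.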
